A study of Mus musculus with 8 samples.

Results

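The glycolysis, lactate export and hypoxia genes described here are 38 genes chosen by name, with earlier results of these data known. They are transporters of lactate and sugars, the enzymes of glycolysis from hexokinase to lactate dehydrogenase, the oxygen sensing factor and its hydroxylases, and known targets of low oxygen. All 38 were found among the 34797 gene names of the array, on 65 probes, and 33 of them were among the 19975 genes bright enough to test. A20 is a mouse B lymphoma line, and 4 lines of it were measured on 2 one-colour arrays each. The control lines were untransfected A20 cells and a stable transfectant carrying membrane IgM. The other lines were stable transfectants carrying IgE, clone 18 and clone 41, and each of these is a single clone. All lines shared the A20 background and the same RPMI medium with serum and beta-mercaptoethanol, and the labels name no further treatment and no oxygen level. The promoter of the transgenes is not given in the sources used here, and whether both arrays of a line stem from different cultures is not stated. The p-values thus speak of how far these samples lie apart, a spread that may be technical.

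Glycolysis breaks glucose down to pyruvate, and lactate dehydrogenase turns pyruvate into lactate, which leaves the cell through monocarboxylate transporters. When oxygen falls, the prolyl hydroxylases of the Egln family mark the transcription factor HIF1A for destruction less efficiently, and HIF1A raises the genes of glycolysis, of lactate export and of mitochondrial turnover. B cells raise glycolysis when they are activated and in the germinal centre, and many B lymphoma lines run it at a high rate in culture.

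The arrays lay on 1 slide with 1 scan time, and each line filled its own slide column, so line and slide column cannot be told apart. The share of spots well above background ran from 49.7% to 58.9%. The spread between both arrays of a line, as the SD of their log2 differences, was widest in untransfected cells (0.647, against 0.323 to 0.37), and a member that gained or lost a pass of the adjusted p of 0.05, or moved by over 1.5 times from a difference above 0.3, without 1 of them is given with and without it. The 8 B cell markers were above background on all 8 arrays, with a summed intensity of 124099 to 157857 in the IgE lines against 162293 to 261377 in the controls. Of these 8, 1 was called lower and 0 higher, where 5.59% and 3.4% of all genes tested were. Of the markers of other cell types that were tested, 1 of 3 T cell genes and 2 of 5 myeloid genes were called lower. Those called higher were 2 of 3 erythroid genes (Hbb-b1 and Epor), and 0 of 2 stromal genes were called either way. Their summed intensities overlapped between IgE and control arrays (T cell 1809 to 2577 against 2257 to 2753, myeloid 19221 to 29350 against 27692 to 32520, stromal 62 to 106 against 99 to 218, erythroid 2639 to 9186 against 706 to 7634). Cd8a, Lyz2 and Col1a1 were above background on no array. The T cell gene called was at -1.39 and -0.62 on the scaled IgM arrays and at -7.07 to -6.87 on the IgE arrays. It entered the test through the IgM line alone, and 1 of the 2 myeloid genes called entered through control lines alone. Lower values of these genes in the IgE lines were thus fixed in advance. The part of these markers in the results was not tested, and in bulk RNA fewer cells of a type and less RNA per cell cannot be told apart.

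Across the IgE lines, 7 of the 33 members tested rose and 2 fell, against 3.4% and 5.59% of all genes tested. Because the members were chosen with earlier results of these data known, the gap between these shares is a description and not a test. A gene was called when its limma adjusted p was under 0.05 and its change at least 2-fold, with the mean of both IgE clones set against the mean of both control lines. The members that rose were the lactate exporter gene Slc16a3, the glycolytic genes Pfkl, Tpi1 and Eno2, and the hypoxia targets Ddit4, Bnip3 and Ankrd37. Those that fell were the fructose transporter gene Slc2a5 and the hypoxia target Ndrg1. Without clone 18 replicate 1 the number that rose was 4, and 4 also passed in a fit of 2 groups that took the line as a random block. The median difference over the 33 members was 0.45 on the log2 scale, against 0.04 over all genes tested, and 26 members lay above 0. For 9 members, all of them among the 26, the brightest probe was saturated on 1 to 8 arrays, so that part of its change could not be read. Member probes saturated on all 8 arrays differed by -0.12 to 0.08 before scaling and by 0.21 to 0.41 after it. Their place above 0 thus cannot be read as a rise. The other 24 members had a median of 0.60. Of those 24, the 4 IgE arrays lay wholly above the 4 control arrays for 5 members (Slc16a3, Slc2a3, Tpi1, Eno2 and Ddit4) and wholly below for Slc2a5. Over all genes these shares were 14.4% and 10.6%. The 33 were well above background on all 8 arrays, except Slc2a5, which was so on 7.

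**Figure D1:**
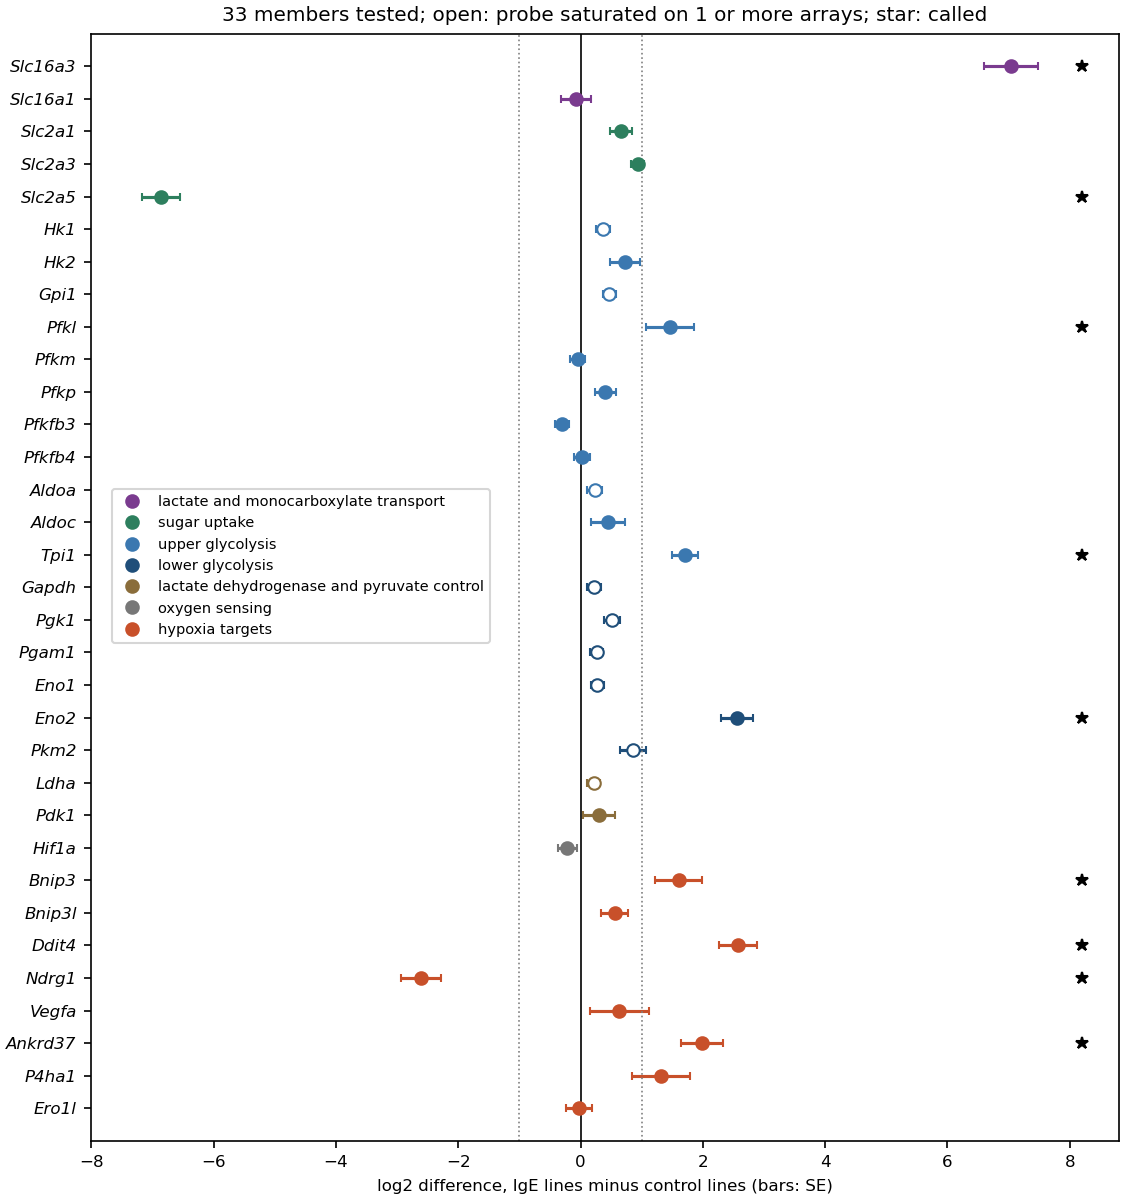
Log2 difference between IgE and control lines (horizontal axis, points with SE) for the 33 members tested, coloured by role, with dotted lines at a 2-fold change. Open points are genes whose probe was saturated on 1 or more arrays, and stars mark the 9 members called; Slc16a3 at 7.04 and Slc2a5 at -6.86 stand far outside the rest.

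Slc16a3, which encodes the lactate exporter MCT4, rose more than any other member. Its processed intensity, in arbitrary units, was 91 and 162 in untransfected cells and 58 and 182 in IgM cells. It read 18191 and 13038 in clone 18 and 12091 and 6467 in clone 41. Every IgE array was above every control array. The log2 level over the array's 75th percentile went from -2.48 ± 0.85 in the control arrays to 4.56 ± 0.60 in the IgE arrays (SD, n = 4 each), a difference of 7.04 ± 0.45 (SE, 131-fold, limma adjusted p = 0.000173). It was called in each of the 20 alternative analyses, with an adjusted p of 1.1e-05 to 0.00247. Its 2 probes (mm9 chr11:120820023-120820082 and chr11:120820030-120820089) overlap over most of their length and gave 7.04 and 7.03, so they are not independent readings. Slc16a1, which encodes the related transporter MCT1, differed by -0.08 ± 0.25 (adjusted p = 0.862), with intensities of 37 to 82 over the 8 arrays. The exporter gene was thus high in the IgE lines, whereas the only probe of Slc16a1 stayed dim in every line. Whether so dim a probe reports its transcript was not tested, so no parting of the 2 transporters can be read.

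**Figure D2:**
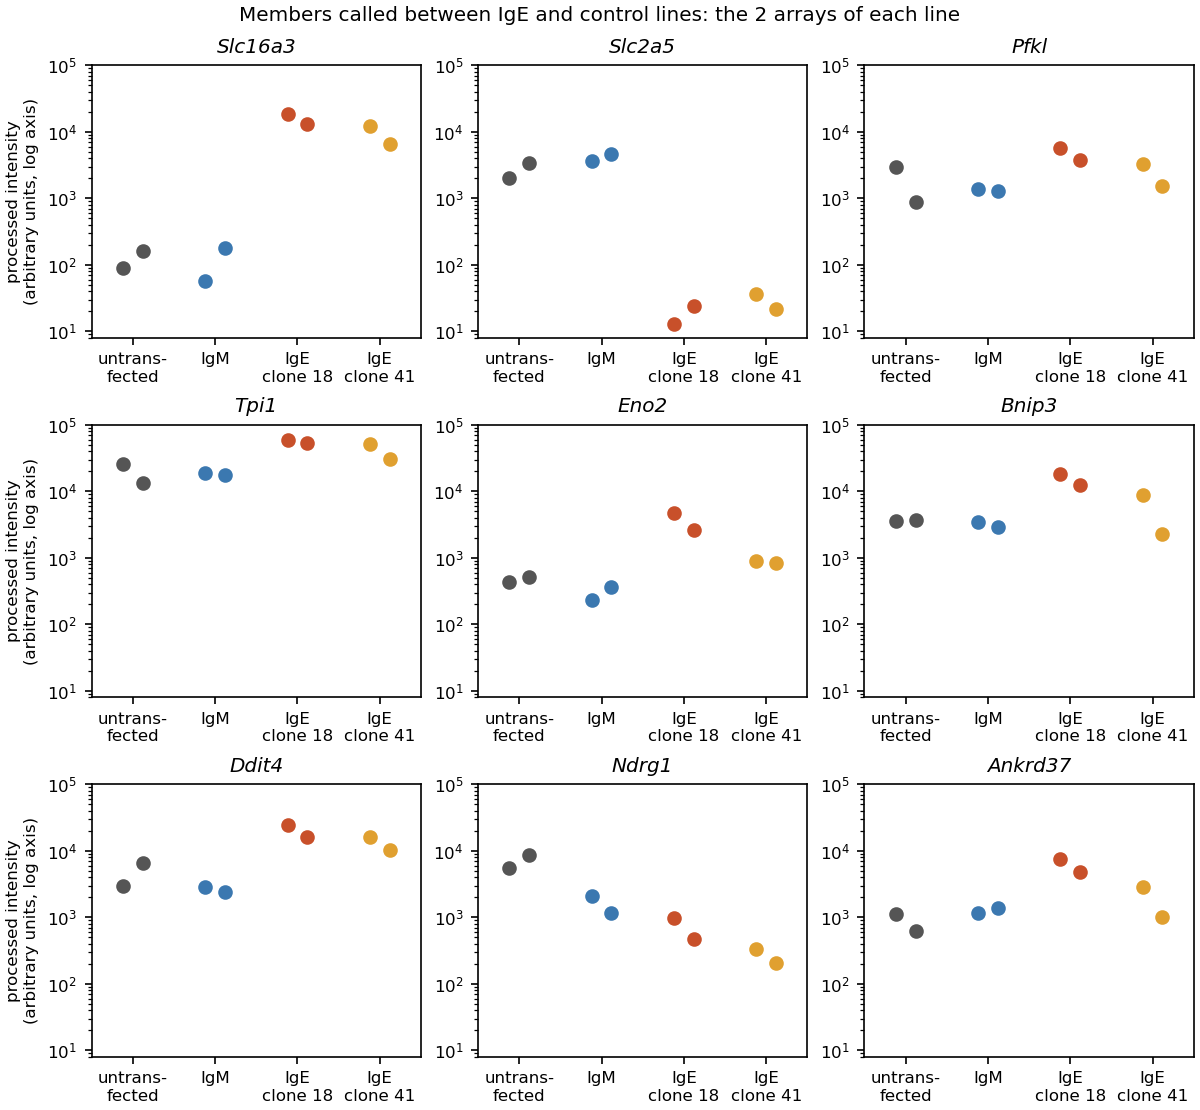
Processed intensity (arbitrary units, log axis) of the 9 members called between IgE and control lines, 1 panel per gene and 2 points per line, 1 for each array. Slc16a3 lies at 58 to 182 in the controls and at 6467 to 18191 in the IgE lines, whereas Bnip3 and Ankrd37 are highest in clone 18 and fall to the level of the controls on clone 41 replicate 2.

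The start sites of the members were searched for the core of the hypoxia response element, the short motif that HIF1A binds, because several members known as targets of low oxygen rose. The window was the 250 bases before each RefSeq start site (GRCm38.p6), the letters were ACGTG or GCGTG on either strand, and overlapping matches, such as both strands of CACGTG, were joined as 1 stretch. The 4 sequences are shown for members that rose and hold 2 or more stretches, on the strand of the gene, 5′ to 3′, with the stretches in capitals: Slc16a3 (chr11:120948817-120949066, plus strand), Ddit4 (chr10:59951771-59952020, minus strand), Bnip3 (chr7:138909507-138909756, minus strand) and Ankrd37 (chr8:45999851-46000100, minus strand).
Slc16a3: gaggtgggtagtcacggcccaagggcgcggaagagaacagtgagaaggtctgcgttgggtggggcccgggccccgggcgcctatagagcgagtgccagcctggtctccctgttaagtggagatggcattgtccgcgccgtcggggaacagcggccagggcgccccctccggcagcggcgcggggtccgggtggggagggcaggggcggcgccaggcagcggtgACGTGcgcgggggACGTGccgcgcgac
Ddit4: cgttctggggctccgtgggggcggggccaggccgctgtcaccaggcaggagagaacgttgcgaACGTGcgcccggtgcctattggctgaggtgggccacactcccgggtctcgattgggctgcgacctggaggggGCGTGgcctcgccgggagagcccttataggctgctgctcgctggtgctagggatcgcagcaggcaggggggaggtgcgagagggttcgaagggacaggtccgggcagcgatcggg
Bnip3: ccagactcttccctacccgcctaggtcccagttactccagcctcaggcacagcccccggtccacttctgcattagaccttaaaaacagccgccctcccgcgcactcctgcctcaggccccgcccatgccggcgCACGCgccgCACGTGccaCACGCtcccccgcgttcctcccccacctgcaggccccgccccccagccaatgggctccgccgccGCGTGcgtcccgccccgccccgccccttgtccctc
Ankrd37: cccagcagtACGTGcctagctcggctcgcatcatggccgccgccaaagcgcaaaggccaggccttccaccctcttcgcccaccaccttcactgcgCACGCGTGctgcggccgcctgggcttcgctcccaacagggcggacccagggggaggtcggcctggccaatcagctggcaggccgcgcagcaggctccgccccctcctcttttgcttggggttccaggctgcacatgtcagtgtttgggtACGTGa
Counted in bases from the start site, the stretches began at -27 and -14 in Slc16a3, at -187 and -115 in Ddit4, at -117, -108, -99 and -35 in Bnip3 and at -241, -155 and -6 in Ankrd37. Of the 51 start sites listed for 35 members, 40 held a match (78.4%), against 38.6% of the 32851 start sites in the table. Among members that rose, 5 of 7 with an entry held one, and Tpi1 and Eno2 did not. The single entry for a member that fell, Slc2a5, held none, whereas 21 of the 22 members tested and not called held one. Members with a match thus stood both among those that rose and among those that did not. Slc2a3, Bnip3l and Ndrg1 had no entry. A match is a stretch of letters and not a measured binding site, and base composition was not matched.

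Among the sugar transporters, Slc2a5 fell and the others did not pass the 2-fold threshold in the pooled contrast. Slc2a5, the fructose transporter GLUT5, read 2027 and 3408 in untransfected cells and 3620 and 4581 in IgM cells. In clone 18 it read 13 and 24, and in clone 41 it read 37 and 22. Every control array was above every IgE array, and clone 18 replicate 1 was not well above background. The difference was -6.86 ± 0.31 (116-fold lower, limma adjusted p = 3.99e-05), and it was called in the 19 alternatives that kept the gene. After scaling, the IgE readings were -5.25 to -3.82. The lowest signals that counted as well above background on those arrays were -4.81 to -4.63. The readings thus lay near the floor, and the size of the fold is uncertain. Slc2a3, the high-affinity glucose transporter GLUT3, was at 1214 to 1568 in the controls and 2005 to 2397 in the IgE lines, without overlap. Its difference of 0.93 ± 0.11 (1.91-fold, adjusted p = 0.00247) fell just short of 2-fold. Slc2a1, the common glucose transporter GLUT1, differed by 0.66 ± 0.18 (1.58-fold, adjusted p = 0.0478), with arrays that overlapped, and by 0.58 without untransfected replicate 2 (adjusted p = 0.0806).

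In upper glycolysis, Tpi1 and Pfkl rose out of 11 members. Tpi1 encodes triosephosphate isomerase, which interconverts the products of aldolase. It read 25534 and 13454 in untransfected cells, 18606 and 17264 in IgM cells, 58726 and 52848 in clone 18 and 51961 and 30956 in clone 41. The lowest IgE array was above the highest control array. The difference was 1.71 ± 0.22 (3.26-fold, adjusted p = 0.00304), and a second, dimmer probe gave 1.88 ± 0.32. Tpi1 and Slc16a3 were the only members tested that were called higher in both clones against both controls.

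Pfkl encodes the liver-type phosphofructokinase, the enzyme of the committed step. It read 2991 and 894 in untransfected cells, 1377 and 1285 in IgM cells, 5636 and 3815 in clone 18 and 3292 and 1540 in clone 41. Untransfected replicate 1 was above clone 41 replicate 2. The difference was 1.46 ± 0.39 (2.76-fold, adjusted p = 0.0451), and it was called in 10 of 20 alternatives. Without any one of the IgM, clone 18 or clone 41 arrays the adjusted p was 0.0566 to 0.145, and without untransfected replicate 1 it was 0.00742. The other phosphofructokinases, Pfkm (muscle type) and Pfkp (platelet type), differed by -0.05 and 0.40 (adjusted p 0.833 and 0.152). Pfkfb3 and Pfkfb4, which make and remove the activator fructose 2,6-bisphosphate, differed by -0.30 and 0.03 (adjusted p 0.121 and 0.895). Hk2, the inducible hexokinase, differed by 0.73 ± 0.25 (adjusted p = 0.0887), by 0.99 without untransfected replicate 1 (adjusted p = 0.011) and by 0.47 without replicate 2 (adjusted p = 0.101). The aldolase gene Aldoc differed by 0.45 ± 0.28 (adjusted p = 0.3).

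Tpi1 and Eno2 lie near each other, and the genes around them were higher in the IgE lines as well. Their probes are 51 kb apart on chromosome 6 (mm9), and the window was looked at after the values had been seen, so the counts are a description without a test. Of 33 other unsaturated genes tested within 500 kb of the Tpi1 probe, 32 lay above 0, 14 were called higher and 0 lower, with a median of 0.97, and within 500 kb of Eno2 the median of 32 was 0.98. The run of high genes was taken from the first to the last gene called higher around Tpi1, before a pair of low genes in a row, so the values themselves set its ends. It went from 124653374 to 125294843, a stretch of 641 kb. In it 29 genes other than members had a median of 1.02 (range 0.03 to 2.41), of which 15 were called higher and 0 lower. The 11 genes before it, out to 2000 kb from Tpi1, had a median of 0.04, and the 7 genes after it -0.18, with no call in either flank. The stretch was high in each of the 4 pairs of an IgE clone and a control line (medians 0.83 to 1.01), and its median between IgM and untransfected cells was -0.02. The 3 Gapdh probes that lie in the stretch and were not saturated gave 0.98 to 1.15. Around the 16 other members with at least 10 such neighbours, the neighbours' medians ran from -0.41 to 0.35. Slc16a3, by contrast, had 39 neighbours with a median of 0.08 and Slc2a5 had 10 with -0.06. Members with fewer than 10 neighbours are not in that range. Among them Ndrg1 had 7 with a median of -0.47, of which 3 were called lower. P4ha1 had 4 with 0.78, of which 1 was called higher. Bnip3 had 6 with 0.06 and Ankrd37 had 5 with -0.09. Over all 12478 genes with at least 10 neighbours, 0.465% had a neighbour median as high as that of Tpi1, a share that includes this stretch. The part of the neighbourhood in the rise of Tpi1 and Eno2 was not tested.

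**Figure D3:**
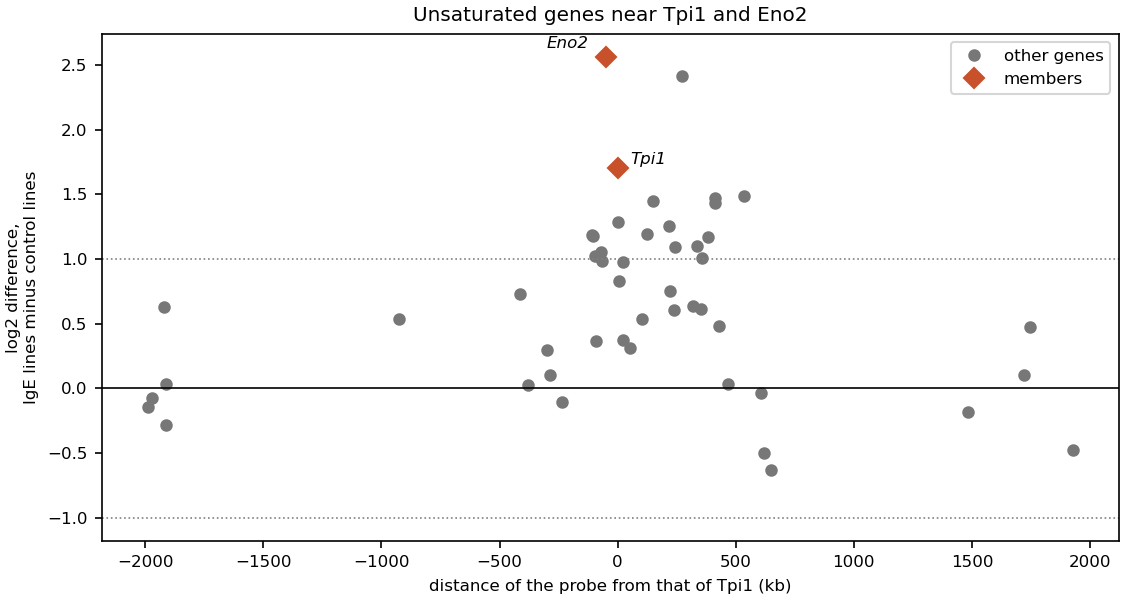
Log2 difference between IgE and control lines (vertical axis) of unsaturated genes tested within 2000 kb of the Tpi1 probe, against the distance of their probes from it in kb. Grey points are other genes and orange diamonds are Tpi1 and Eno2. Other genes in the 641 kb stretch around them have a median of 1.02, and the genes before and after it have medians of 0.04 and -0.18.

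Of the 6 members in lower glycolysis, Eno2 rose, and the other 5 had their brightest probe saturated on 1 to 8 arrays. Eno2 encodes the neuronal-type enolase. It read 431 and 512 in untransfected cells, 232 and 361 in IgM cells, 4650 and 2600 in clone 18 and 898 and 830 in clone 41. Every IgE array was above every control array, and clone 18 was above clone 41. The difference was 2.56 ± 0.26 (5.91-fold, adjusted p = 0.00131), called in all 20 alternatives. In clone 41 against untransfected cells the difference was 1.21 (adjusted p = 0.118).

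A saturated spot reports the scanner's ceiling rather than the RNA level. Among the 58 member probes kept, 15 were saturated on 1 or more arrays and 8 of them on all 8. The processed values of those 8 differed between IgE and control arrays by -0.12 to 0.08 on the log2 scale before scaling, and by 0.21 to 0.41 after it. The 75th percentile subtracted was 474 to 524 on the IgE arrays and 584 to 664 on the control arrays. Of the 43 unsaturated member probes tested one by one, 15 were called higher and 2 lower, and none of the 15 saturated probes was called. Bnip3, Slc16a3, Tpi1 and Gapdh each gave more than 1 of the probes called higher, so these are not independent readings. Over all probes, 3.6% were called higher and 5.39% lower.

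The unsaturated probes of Gapdh, Hk1 and Ldha could be read where the brightest could not. Gapdh encodes the dehydrogenase that yields the first NADH of the pathway. Its brightest probe read 73931, 75265, 73082 and 71432 in the controls and 68824, 67196, 69052 and 67350 in the IgE lines (untransfected, IgM, clone 18 and clone 41, in that order), saturated on every array, so no difference can be read from it. That probe is placed on chromosome 7, and another on chromosome 8, away from the other 6 probes on chromosome 6, so near-identical copies may add to the signal. The 3 unsaturated probes gave 0.98 ± 0.14, 1.12 ± 0.17 and 1.15 ± 0.19 (adjusted p 0.00583, 0.00646 and 0.00901), of which 2 were called. The middle one (chr6:125113229-125113288) read 29120 and 18948 in untransfected cells, 23828 and 23836 in IgM cells, 41534 and 44586 in clone 18 and 48411 and 31250 in clone 41. Its IgE arrays were all above its control arrays.

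Hk1 encodes the constitutive hexokinase of the first step. Its brightest probe read 69676, 69283, 74561 and 71073 in the controls and 69870, 79986, 77352 and 65196 in the IgE lines, saturated on every array. A second probe stayed unsaturated and read 1360 and 1535 in untransfected cells, 195 and 203 in IgM cells, 2459 and 2249 in clone 18 and 940 and 965 in clone 41. Its difference was 1.81 ± 0.14 (3.51-fold, adjusted p = 0.000386), but clone 41 lay below untransfected cells, and the IgM arrays stood apart from both. The third probe gave 0.97 ± 0.18 (adjusted p = 0.0149).

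Ldha encodes the subunit of lactate dehydrogenase that favours lactate. Its brightest probe read 74088, 74163, 72085 and 70947 in the controls and 67888, 66652, 67817 and 66136 in the IgE lines, again saturated on every array. The brighter unsaturated probe read 34197 and 11176 in untransfected cells, 22954 and 19152 in IgM cells, 36393 and 29066 in clone 18 and 26654 and 17031 in clone 41. It differed by 0.71 ± 0.32 (adjusted p = 0.175) and the groups overlapped, with the 2 untransfected arrays at either end of the controls. Pdk1, the kinase that closes the pyruvate dehydrogenase route, differed by 0.31 ± 0.26 (adjusted p = 0.463), by 0.51 without untransfected replicate 1 and by 0.098 without replicate 2 (adjusted p 0.175 and 0.804). Ldhb, the subunit that favours pyruvate, was above background on no array (4.03 to 11.1).

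**Figure D4:**
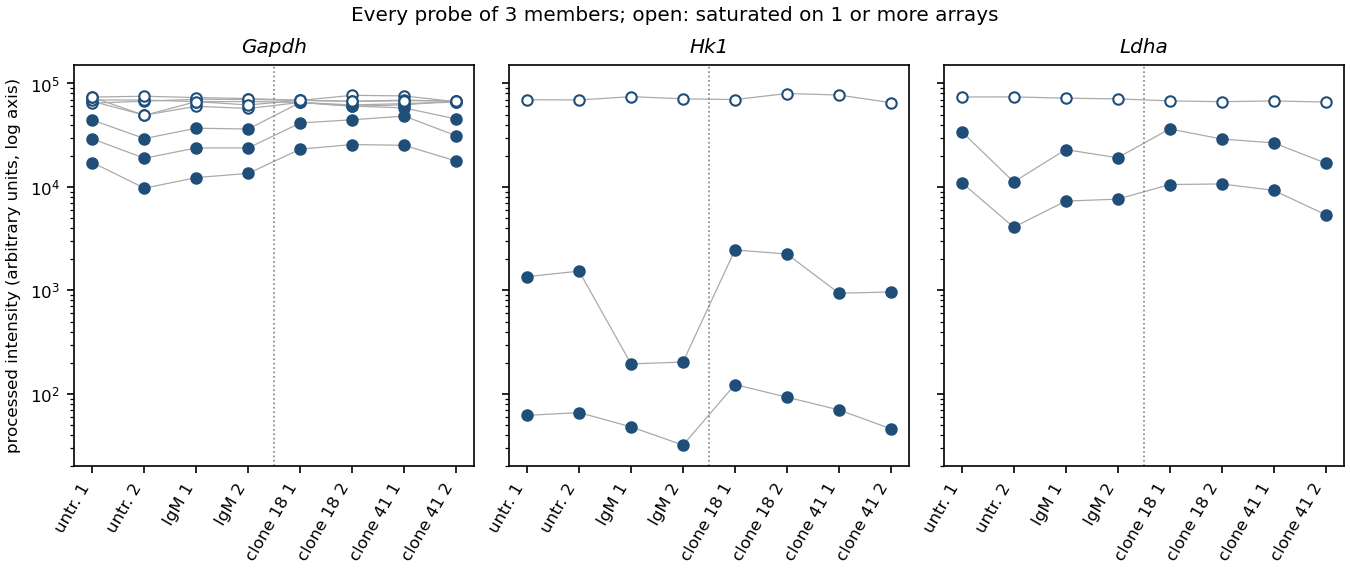
Processed intensity (arbitrary units, log axis) of every probe of Gapdh, Hk1 and Ldha on the 8 arrays, control lines left and IgE lines right of the dotted line. Grey lines join the readings of 1 probe, and open points are probes saturated on 1 or more arrays, which stay near the ceiling in every line, whereas the filled unsaturated Gapdh probes are higher on all IgE arrays.

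The remaining saturated members could be read on some arrays or on none. Aldoa (aldolase) read 72317, 74764, 69912 and 70013 in the controls and 68576, 64649, 66109 and 69309 in the IgE lines, and Eno1 (the main enolase) 59285, 59028, 61867 and 60410 against 59276, 59105, 56904 and 56558. Both were saturated on all 8 arrays, so no fold is given. Pgam1 (phosphoglycerate mutase) read 64066, 61652, 62009 and 60897 against 58898, 62241, 61070 and 55435 and was saturated on 7. These 3 were at the ceiling in every line, and nothing can be read from their order.

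Gpi1 (glucose-6-phosphate isomerase) read 64443, 57836, 64363 and 64184 in the controls and 68394, 73178, 72360 and 63273 in the IgE lines. It was saturated on 2 control and 3 IgE arrays, and its other 2 probes on 4 and 8 arrays. The only probe of Pgk1 (phosphoglycerate kinase) is placed on chromosome 3, whereas the start site of the gene is listed on chromosome X. A near-identical copy may thus add to its signal. Pgk1 read 69955, 54074, 63017 and 58438 against 69814, 80310, 76312 and 54379 and was saturated on 1 control and 3 IgE arrays. The scaled differences of 0.47 ± 0.11 and 0.52 ± 0.13 (adjusted p 0.0276 and 0.0417) include ceiling values on both sides, and without untransfected replicate 2 Pgk1 did not pass (adjusted p = 0.0632). Pkm2 (the gene now named Pkm, the pyruvate kinase of proliferating cells) read 45790 and 28900 in untransfected cells, 32876 and 27576 in IgM cells, 64512 and 55088 in clone 18 and 52766 and 27843 in clone 41, saturated on 1 IgE array. Its difference was 0.86 ± 0.21 (1.82-fold, adjusted p = 0.0352), short of 2-fold except without clone 41 replicate 2 (1.06, adjusted p = 0.0211), and without untransfected replicate 2 it was 0.74 (adjusted p = 0.0612).

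Of the 3 members of oxygen sensing, only Hif1a was bright enough to test, and it was not called. Hif1a, the oxygen-regulated transcription factor, read 1306 to 2643 in the controls and 1035 to 1641 in the IgE lines, a difference of -0.22 ± 0.16 (adjusted p = 0.38). Its second, dimmer probe gave 0.35 ± 0.13 (adjusted p = 0.115), with the opposite sign. The hydroxylase gene Egln1 was above background on 1 array (8.89 to 67.6) and Egln3 on none (3.79 to 7.22), so neither was tested. HIF1A is controlled largely at the protein level, which these arrays do not measure.

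Of the 8 hypoxia targets tested, Ddit4, Bnip3 and Ankrd37 rose and Ndrg1 fell. Ddit4, which encodes the mTOR inhibitor REDD1, read 2984 and 6457 in untransfected cells, 2830 and 2372 in IgM cells, 24720 and 16322 in clone 18 and 16126 and 10117 in clone 41. Every IgE array was above every control array. The difference was 2.58 ± 0.31 (5.97-fold, adjusted p = 0.00256), called in all 20 alternatives.

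Bnip3, which encodes a receptor for the removal of mitochondria, read 3574 and 3677 in untransfected cells, 3444 and 2874 in IgM cells, 18304 and 12371 in clone 18 and 8685 and 2263 in clone 41. Clone 41 replicate 2 was below every control array, and the other IgE arrays were above them. The difference was 1.60 ± 0.38 (3.04-fold, adjusted p = 0.032), its other 2 probes gave 1.64 and 2.02, and it was called in 11 of 20 alternatives. Replicate 1 of every line lay in 1 row of the slide and replicate 2 in the other, and the difference was 2.23 within slide row 1 and 0.98 within slide row 2. It rose to 2.05 (adjusted p = 0.00294) without clone 41 replicate 2 and kept its call at 1.16 without clone 41 replicate 1, whereas without any other array the adjusted p was 0.0511 to 0.118.

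Ankrd37, a small ankyrin protein gene induced by low oxygen, read 1111 and 612 in untransfected cells, 1144 and 1396 in IgM cells, 7616 and 4776 in clone 18 and 2878 and 1023 in clone 41. Both clone 18 arrays were high, and clone 41 replicate 2 lay among the controls. The difference was 1.99 ± 0.35 (3.96-fold, adjusted p = 0.0109), and without clone 18 replicate 1 the adjusted p was 0.0517. The related gene Bnip3l (NIX) differed by 0.56 ± 0.22 (adjusted p = 0.123), with 4 probes between 0.48 and 0.68. Without untransfected replicate 2 it differed by 0.80 (adjusted p = 0.00976), and without replicate 1 by 0.32 (adjusted p = 0.112).

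Ndrg1, a stress response gene that low oxygen raises in many cells, went the other way. It read 5462 and 8561 in untransfected cells, 2081 and 1141 in IgM cells, 981 and 476 in clone 18 and 338 and 208 in clone 41. The IgE arrays were all below the control arrays in intensity, and on the scaled values clone 18 replicate 1 overlapped an IgM array. The difference was -2.60 ± 0.33 (6.07-fold lower, adjusted p = 0.003), called in all 20 alternatives. The IgM line was itself at -2.13 against untransfected cells (adjusted p = 0.0884), and in clone 18 against IgM cells Ndrg1 differed by -0.84 (adjusted p = 0.303).

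For Vegfa, P4ha1 and Ero1l the values moved with the untransfected arrays. Vegfa, the angiogenic growth factor, read 352 and 1528 in untransfected cells, 318 and 216 in IgM cells, 523 and 345 in clone 18 and 891 and 542 in clone 41. P4ha1, a collagen prolyl hydroxylase subunit, read 158 and 706, 77 and 91, 459 and 377, and 271 and 258 in the same order. Ero1l (now Ero1a), an oxidase of the endoplasmic reticulum, read 960 and 1624, 539 and 455, 765 and 673, and 594 and 467. In each of them untransfected replicate 2 was the highest of the 8 arrays. Vegfa differed by 0.64 ± 0.49 (adjusted p = 0.406) with that array and by 1.21 (adjusted p = 0.0203) without it, and by 0.064 (adjusted p = 0.863) without untransfected replicate 1. P4ha1 differed by 1.32 ± 0.47 (adjusted p = 0.099) with it and by 1.90 (adjusted p = 0.00108) without it, and by 0.73 (adjusted p = 0.0216) without untransfected replicate 1. Its other, dimmer probe was called higher with all arrays (1.74 ± 0.47, adjusted p = 0.0485). Ero1l differed by -0.02 with untransfected replicate 2 and by 0.21 without it (adjusted p 0.95 and 0.272). P4ha2 was above background on IgM replicate 1 alone (425, against 3.53 to 18.4 elsewhere) and Mxi1 on 1 array (5.18 to 18.4), so neither was tested.

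Against each control line separately, Slc16a3 and Tpi1 were called higher and Slc2a5 lower in all 4 pairs, against 1.05% and 1.88% of all genes. These pairs share their control and clone arrays, so they are not independent. Without any 1 of the IgM or IgE arrays, 1 member was called higher in all 4 pairs. Eno2 and Ddit4 were called in 3 pairs and missed clone 41 against untransfected cells (1.21 and 1.87, adjusted p 0.118 and 0.0583). Bnip3 and Ankrd37 were called in both clone 18 pairs (2.40 and 2.59, and 3.22 and 2.59) and in neither clone 41 pair (0.62 and 0.81, and 1.38 and 0.75). Pfkl was called in no single pair (0.79 to 2.13, adjusted p 0.0545 to 0.443). Some members not called in the pooled contrast were called higher in 1 pair. These were Slc2a3 in clone 41 against untransfected cells (1.02), and Slc2a1, Pfkp and Pkm2 in clone 18 against IgM cells (1.10, 1.31 and 1.32). In clone 18 against untransfected cells 6 members were called higher and 2 lower, against 3.34% and 4.35% of all genes. In clone 18 against IgM cells there were 9 and 1, against 3.4% and 5.75%. In clone 41 against untransfected cells there were 3 and 2, against 2.42% and 3.18%, and against IgM cells 4 and 2, against 2.66% and 4.73%.

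**Figure D5:**
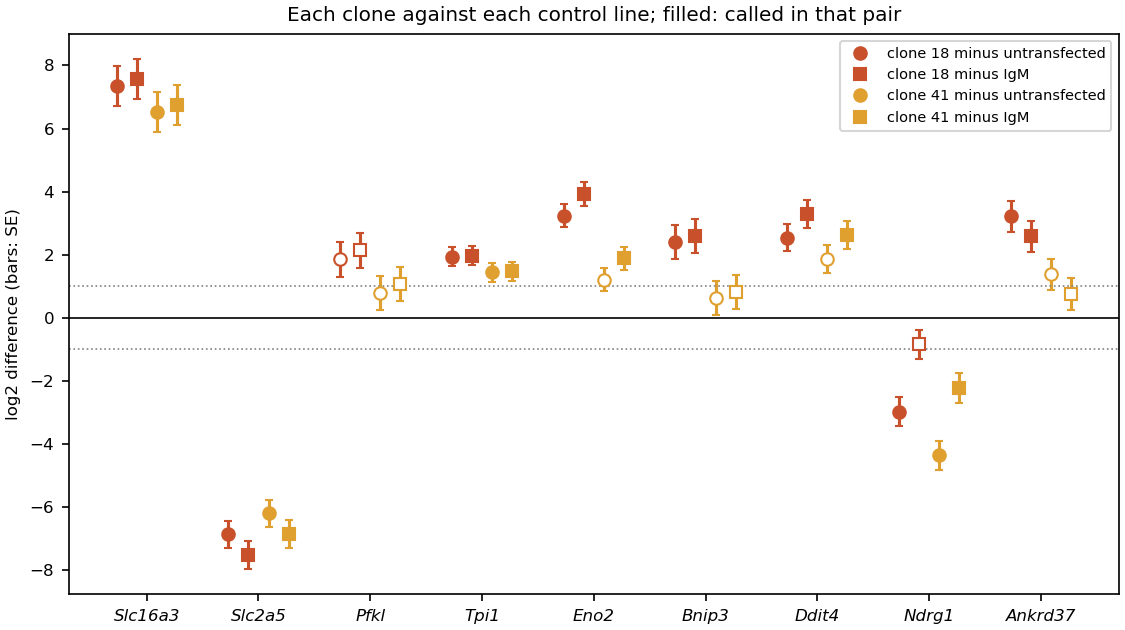
Log2 difference (vertical axis, points with SE) of the 9 called members for clone 18 (red) and clone 41 (yellow) against untransfected cells (circles) and IgM cells (squares); filled points were called in that pair. Slc16a3, Slc2a5 and Tpi1 are filled in all 4 pairs, and Bnip3 and Ankrd37 in clone 18 alone.

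Tested directly against each other, the clones gave no member call: 0 of 33 were higher and 0 lower in clone 41 than in clone 18 (limma), against 0.175% and 0.18% of all genes, and 6 had an unadjusted p under 0.05. With normexp background correction Eno2 was called lower in clone 41 (-2.01, adjusted p = 0.0485), and by the main scaling it differed by -2.03 (adjusted p = 0.154). Bnip3 differed by -1.78 and Ankrd37 by -1.83 (adjusted p 0.547 and 0.422). All 7 members that rose had a lower mean in clone 41, and over the 33 members the median was -0.37, against -0.01 over all genes. Within both clones replicate 2 was the dimmer array for most of them. Of the 7 members that rose, 7 were lower on replicate 2 of clone 18 and 6 on replicate 2 of clone 41 after scaling (medians -0.58 and -0.76), where the median over all genes was 0.04 and -0.01. In the control lines 3 and 2 of the 7 were lower on replicate 2.

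IgM cells differed from untransfected cells in 1 member: 0 were called higher and 1 lower, against 1.23% and 0.811% of all genes. Pfkp, the platelet-type phosphofructokinase, read 5906 and 4420 in untransfected cells, 2275 and 1517 in IgM cells, 4079 and 3293 in clone 18 and 3509 and 2347 in clone 41. Both IgM arrays were the lowest of the 8. The difference was -1.44 (2.72-fold lower, adjusted p = 0.0394), and leaving out any 1 of the 8 arrays ended the call (adjusted p 0.0548 to 0.159). Without untransfected replicate 1, 3 other members were called lower.

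The surrounding pathways showed few calls. Lists of 120 further genes were set beside the members, with 116 on the array and 94 tested, of which 1 was called higher and 2 lower (background 3.4% and 5.59%). Without untransfected replicate 1, 3 were called higher, and without IgM replicate 1, 2. Leaving out IgM replicate 2, either clone 18 array or clone 41 replicate 1 left 1 called lower. None was called among 18 genes of the tricarboxylic acid cycle (median -0.02), 8 of the pentose phosphate pathway (0.13), 21 other glycolytic and gluconeogenic isoforms (0.03) and 14 genes of pyruvate and lactate entry (0.10). Bsg, which encodes the chaperone basigin that takes MCT4 to the cell surface, read 4168, 2770, 2628 and 2924 in the controls and 5025, 4625, 3378 and 2893 in the IgE lines. It differed by 0.67 ± 0.15 (1.59-fold, adjusted p = 0.0247), short of 2-fold, and after scaling clone 41 replicate 2 overlapped the controls. The transporter gene Slc16a7 (MCT2) was not bright enough to test.

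Among 14 genes of the HIF machinery, Egln2 was called lower. Egln2, a prolyl hydroxylase, read 72900, 32259, 70568 and 65921 in the controls, where 2 arrays were saturated, and 21694, 23395, 25941 and 19505 in the IgE lines. All its IgE arrays were below its control arrays, and the difference was -1.02 ± 0.23 (adjusted p = 0.0255). The saturated readings cap the control mean, so the estimate of 2.03-fold lower, just past the threshold, may understate the fall. With unsaturated probes preferred, pathway genes called lower went from 2 to 1. The probe of Plod2, the other gene called lower, was saturated on no array, so the call lost was that of Egln2. The call of Egln2 thus rests on a probe with saturated readings. Hif1an, the asparagine hydroxylase FIH, differed by -0.62 ± 0.14 (adjusted p = 0.0247), short of 2-fold. Arnt (the partner of HIF1A), Epas1 (HIF2A) and Vhl (the ubiquitin ligase subunit) differed by 0.13, 0.06 and 0.08 (adjusted p 0.443, 0.858 and 0.801). The growth regulator Myc differed by 0.92 ± 0.36 (adjusted p = 0.127) and the glucose-responsive gene Txnip by 0.44 ± 0.52 (adjusted p = 0.594).

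Of 19 other hypoxia targets, 1 rose and 1 was called lower, with a median of 0.28. Adm, the vasodilator peptide adrenomedullin, read 5505, 11439, 5315 and 4048 in the controls and 13481, 12759, 28898 and 19558 in the IgE lines, 3.66-fold higher (1.87 ± 0.27, adjusted p = 0.00552), and was highest in clone 41. Plod2, a collagen lysyl hydroxylase, read 149 to 298 in the controls and was not well above background on any IgE array, at least 9.11-fold lower there. It entered the test through the control lines alone, so it had to differ, and its call adds nothing to the bound. The bound sets the control mean against the lowest signal that counted as well above background.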

How the data were processed

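Total RNA of 8 samples was labelled with 1 dye and hybridised to Agilent mouse arrays. The deposited intensity of each spot is the processed signal of Feature Extraction 10.7.3.1, background-subtracted, detrended and not normalized between arrays, per the file headers. The authors' deposited table of log2 values (array medians 5.9 to 5.92) followed the rank of the median pixel signal exactly and served as an alternative; its centring is not given in the sources used here. Here each array's log2 intensity was reduced by its 75th percentile. Control and outlier spots were left out and repeated spots averaged. A probe was kept when both arrays of 1 or more lines had it well above background (29144 of 55681), with the brightest probe for each gene name. Each of 19975 genes got a mean per line and a shared spread in limma 3.58.1 in R 4.3.3, two-sided, with Benjamini-Hochberg adjustment over all of them. The members and lists were chosen with earlier results of these data known. By rule, members called in the pooled, clone or IgM contrast and members with a saturated probe are given on every array, and other members by difference or range; array values of Slc2a3, Hif1a, Vegfa, P4ha1, Ero1l, Bsg and of the unsaturated probes were added after they were seen. Of the pathway lists, genes called are named, and Bsg, Slc16a7, Arnt, Epas1, Vhl, Egln2, Hif1an, Myc and Txnip whatever their values. Positions are on mm9 as the array design gives them, and promoter sequences are from RefSeq (GRCm38.p6). The number of arrays limits the precision. Some marker genes are not reported here.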

Additional observations from a re-analysis of the deposited data

How the results depend on the processing

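The 9 called members kept their sign under all 20 alternatives (19 for Slc2a5, which the stricter filter removed), and 6 of them also kept their call. Only Pfkl, Bnip3 and Ankrd37 lost it under some, in 21 of 179 values. The number of members called higher, 7, was 6 with quantile normalization, 12 with the adjusted p alone and 4 when lines entered 2 groups as random blocks. Pfkl and Bnip3 lost their calls both without a filter on dim probes and in the authors' deposited table. The number called higher in all 4 pairs, 2, was 1 without a filter on dim probes and with the authors' deposited table, and 1 to 3 with an array left out. The members called lower, 2 and 1, were 1 and 0 under the stricter filter. In IgM against untransfected cells the 1 lower call became 0 with quantile normalization, without a filter and in the authors' table, and 2 with normexp background correction, with unsaturated probes preferred and with every probe as its own feature, and 0 to 3 with an array left out. Normexp gave 1 lower call between the clones. Pathway genes called higher, 1, became 2 with quantile normalization, 8 with the adjusted p alone and 1 to 3 with an array left out. Those called lower, 2, became 1 with normexp, without a filter, with the stricter filter, in the authors' table and with unsaturated probes preferred, 6 with the adjusted p alone, and 1 to 2 with an array left out.

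Signs turned only among members not called. Quantile normalization gave -0.0337 for Aldoa, -0.0644 for Gapdh, -0.0506 for Pgam1, -0.03 for Eno1 and -0.0903 for Ldha, all saturated, and 0.013 for Slc16a1. The authors' table gave -0.0041 for Pgam1 and 0.0494 for Ero1l, and normexp gave 0.089 for Slc16a1 and 0.0407 for Ero1l. With an array left out, Slc16a1 ran from -0.2881 to 0.1378, Ero1l from -0.2568 to 0.2079, Pfkm from -0.112 to 0.0216 and Pfkfb4 from -0.0625 to 0.122. The cause was not tested.

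With the replicate number as a replicate block, the counts were 7 higher and 2 lower, 2 and 1 in all 4 pairs, 0 and 0 between the clones, and 0 and 1 in IgM against untransfected cells, the same as without it. The correlation of replicate differences between lines ran from -0.0595 to 0.355 and was above 0.1 in 4 of 6 pairs. The number also marks the slide row. Within slide rows 1 and 2 each called member kept its sign, at 8.05 and 6.02 for Slc16a3, -6.57 and -7.14 for Slc2a5, 1.47 and 1.46 for Pfkl, 1.72 and 1.69 for Tpi1, 3.07 and 2.05 for Eno2, 2.23 and 0.98 for Bnip3, 3.16 and 1.99 for Ddit4, -2.17 and -3.03 for Ndrg1 and 2.44 and 1.54 for Ankrd37, values without a test. Over all genes, 679 were called higher and 1117 lower, against 421 and 608 with normexp, 434 and 683 in the authors' table, 466 and 620 under the stricter filter and 1671 and 1892 with the adjusted p alone. The scalings moved the median of all genes by no more than 0.084 from 0. Saturation limits Aldoa, Eno1 and Pgam1, for which no change can be read, and Gpi1 and Pgk1, whose differences include ceiling values. Dimness limits the 5 members not tested.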
